A study of Mus musculus with 36 samples.

Results

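The FOXO transcription factors Foxo1, Foxo3 and Foxo4 and the muscle ubiquitin ligases Fbxo32 (atrogin-1), Trim63 (MuRF1), Fbxo30 (MUSA1) and Fbxo40 were followed in the gastrocnemius, a calf muscle, of mice that ran defined distances on a high-fat diet. These 7 genes were found by their gene names among the 46893 features of the count table, and all 7 averaged 25 or more counts per library in every comparison. FOXO factors are held in the cytoplasm when insulin or IGF-1 signalling through Akt phosphorylates them, and they enter the nucleus and switch on their targets when that signal is low. Fbxo32 and Trim63 are the best known of these targets in muscle, where they rise in fasting, disuse and glucocorticoid excess and mark proteins for the proteasome. An mRNA level reports neither the place nor the activity of a FOXO protein.

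Male C57BL/6 mice, 3 to 4 weeks old at the start, were kept for 12 weeks in 6 groups of 6, and 1 gastrocnemius library was made from each of the 36 mice. NFD-C mice were sedentary on the AIN93G diet, HFD-C mice were sedentary on the high-fat diet, and the 4 running groups ate the high-fat diet and had wheels. The running distances were 2.1 km/day in HFD-25%, 4.2 km/day in HFD-50% and 6.3 km/day in HFD-75%, while HFD-U mice ran without a limit, at 8.3 km/day. No group ran on the AIN93G diet, so comparisons of NFD-C with the runners change diet and running together. The tissue is bulk muscle, in which fewer cells of a type and less RNA per cell cannot be told apart.

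Libraries held 13060090 to 27981702 counts. The summed level of 10 fast fibre genes was 88855 to 179294 CPM (counts scaled to library size) over the 36 libraries and no marker was at 0. Slow fibre genes summed to between 34.0 and 3880 CPM, a spread that was wide in every group. The median sum also differed between groups. It was 117 CPM in NFD-C, 1162 CPM in HFD-C, 965 CPM in HFD-25%, 1641 CPM in HFD-50%, 717 CPM in HFD-75% and 700 CPM in HFD-U. The part of fibre type in the differences below was not tested. The share of counts on rRNA-linked features was 2.01 to 3.803% in all 6 NFD-C libraries and in HFD-C replicates 1 to 4, and 0.404 to 1.02% in the other 26 libraries. All running mice lay in the low set, so each comparison with HFD-C is also given with its low-share replicates alone where the value moved.

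Per length, the ligases were the more abundant transcripts. Mean levels over the 36 libraries were 261 FPKM for Trim63, 90.6 FPKM for Fbxo32, 68.4 FPKM for Fbxo40, 25.4 FPKM for Foxo4, 10.9 FPKM for Foxo1, 4.38 FPKM for Foxo3 and 1.21 FPKM for Fbxo30. Foxo4 was thus the most abundant FOXO mRNA on this scale. Its level was also the steadiest, with a 1.76-fold range over all mice, against 10.8-fold for Foxo1, 11.04-fold for Trim63 and 6.38-fold for Fbxo32.

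**Figure D1:**
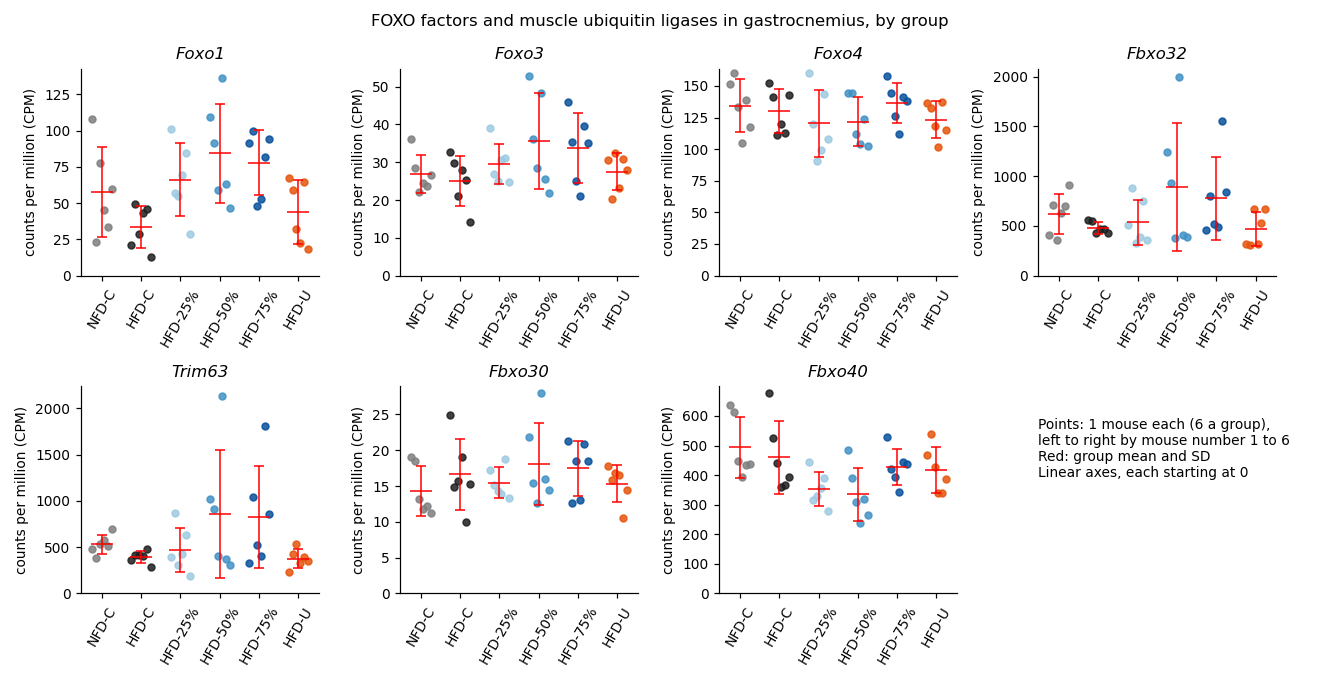
Level of each gene (CPM, linear axis from 0) in 36 mice, 6 a group, with group means and SDs in red. Foxo1 means were highest in HFD-50% (84.2 CPM) and HFD-75% (77.8 CPM). In HFD-50% Fbxo32 ran from 375 to 1995 CPM and Trim63 from 311 to 2136 CPM, both highest in the same mouse, replicate 4. In HFD-75% they ran from 462 to 1555 CPM and from 330 to 1804 CPM, both highest in replicate 5.

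Foxo1 (gene 56458, GRCm39 chromosome 3, 52175758 to 52257530, plus strand), a factor that fasting induces in muscle, was lowest in sedentary mice on the high-fat diet and highest at the middle running distances. Its lowest, median and highest values were 12.6, 35.96 and 49.2 CPM in HFD-C. They were 28.9, 63.3 and 101 CPM in HFD-25%, 46.5, 77.1 and 137 CPM in HFD-50%, and 47.6, 86.5 and 99.6 CPM in HFD-75%. In HFD-U they were 18.6, 45.3 and 67.2 CPM, and in NFD-C 23.3, 52.6 and 108 CPM. In each of HFD-25%, HFD-50% and HFD-75%, 5 of 6 mice exceeded the highest HFD-C value, and the HFD-U mice overlapped with HFD-C.

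Across the 30 high-fat-fed mice, a curve linear plus quadratic in distance passed the test for Foxo1 (edgeR quasi-likelihood F-test, n = 30, p = 0.000199, adjusted p = 0.0400). The fitted curve bent downward, with its top at 54.4% of the unrestricted distance. Of all genes, 0.683% passed the adjusted threshold of 0.05 and 12.2% the same threshold before adjustment, where Foxo1 was joined by Foxo3 (n = 30, edgeR p = 0.0310), Fbxo32 (p = 0.0214) and Trim63 (p = 0.00526). Their fitted tops lay at 55.7%, 52.7% and 52.9%, and their adjusted p-values of 0.348, 0.293 and 0.177 missed the threshold. Foxo4, Fbxo30 and Fbxo40 had adjusted p-values of 0.991, 0.904 and 0.465.

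The call for Foxo1 was near the threshold. Without 1 of the 30 mice its adjusted p ran from 0.0296 to 0.0956, and 13 of these 30 fits missed the threshold. With the 26 libraries of low rRNA-linked share alone the adjusted p was 0.187, and when library set was added to the model, chosen after seeing the data, it was 0.164. Among the 24 running mice the same curve gave adjusted p = 0.449 for Foxo1, adjusted p = 0.542 for Fbxo32 and adjusted p = 0.406 for Trim63. These 3 members passed 0.05 before adjustment, as did 8.49% of all genes, and none did after it, where 0.0419% of genes did.

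In fits of 2 groups at a time by edgeR, no member passed the adjusted threshold of 0.05 in any of the 15 comparisons. The differences below are given as sizes with 95% intervals and the adjusted p, and an interval that leaves out 0 goes with an unadjusted p under 0.05. Foxo1 was 2.52-fold higher in HFD-50% than in HFD-C (log2 difference 1.33, 0.64 to 2.02, adjusted p = 0.139). It was 2.33-fold higher in HFD-75% (log2 difference 1.22, 0.60 to 1.84, adjusted p = 0.372) and 1.97-fold higher in HFD-25% (log2 difference 0.98, 0.30 to 1.66, adjusted p = 0.496). HFD-U differed by 0.39 (-0.36 to 1.14, adjusted p = 0.997). By DESeq2 on the same genes the adjusted p for Foxo1 was 0.00635 in HFD-50% and 0.0165 in HFD-75%. With HFD-C replicates 5 and 6 as the only controls the log2 differences were 1.18, 1.53 and 1.40 for HFD-25%, HFD-50% and HFD-75%. These replicates had 45.8 and 12.6 CPM of Foxo1, and replicate 6 was the lowest of all libraries, so the larger differences rest much on that mouse.

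Mean Foxo1 was lower in unrestricted runners than at the middle distances. The log2 difference was 0.94 (0.22 to 1.66, adjusted p = 0.296) for HFD-50% against HFD-U and 0.83 (0.17 to 1.48, adjusted p = 0.735) for HFD-75% against HFD-U. In order of mean level the groups ran HFD-50%, HFD-75%, HFD-25%, NFD-C, HFD-U and HFD-C, and no neighbours in this order differed even before adjustment (log2 differences 0.12, 0.24, 0.19, 0.40 and 0.39). NFD-C had 1.74-fold more Foxo1 than HFD-C (log2 difference 0.80, 0.04 to 1.55, adjusted p = 0.9997). Without NFD-C replicate 1, the mouse at 108 CPM, that difference was 0.52 and missed the threshold before adjustment.

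Foxo3 (gene 56484, chromosome 10, 42057841 to 42152691, minus strand), the factor best known for driving Fbxo32 and autophagy genes in wasting muscle, followed Foxo1 at a smaller scale. Group means went from 25.1 ± 6.69 CPM (SD, n = 6) in HFD-C through 29.5 ± 5.36 CPM in HFD-25% to 35.6 ± 12.6 CPM in HFD-50% and 33.7 ± 9.22 CPM in HFD-75%, and were 27.5 ± 4.81 CPM in HFD-U and 26.9 ± 5.08 CPM in NFD-C. The log2 difference from HFD-C was 0.51 (0.01 to 1.003, adjusted p = 0.455) in HFD-50%, where 3 of 6 mice were above every HFD-C mouse. In HFD-75% it was 0.43 (-0.01 to 0.87, adjusted p = 0.929). The 2 low-share HFD-C replicates had 25.2 and 14.1 CPM of Foxo3, and with them as the only controls the log2 difference was 0.86 for HFD-50% and 0.78 for HFD-75% (adjusted p = 0.516 and 0.515 by edgeR). On the same basis it was 0.60 for the shortest distance, HFD-25%, and 0.48 for unrestricted runners (adjusted p = 0.407 and 0.452 by edgeR).

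Foxo4 (gene 54601, chromosome X, 100297855 to 100304479, plus strand) lay at 120 to 137 CPM in the mean of every group. Its differences from HFD-C were between -0.11 in HFD-25% and 0.08 in HFD-75% on the log2 scale. The widest of these 4 intervals, that of HFD-25%, ran from -0.43 to 0.20.

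Fbxo32 (gene 67731, chromosome 15, 58039275 to 58078288, minus strand) encodes the substrate receptor of an SCF ligase that targets MyoD and a translation factor. Sedentary mice on the high-fat diet were close together, with a lowest, median and highest value of 424, 467 and 560 CPM. The values were 329, 449 and 879 CPM in HFD-25%, 375, 670 and 1995 CPM in HFD-50%, and 462, 659 and 1555 CPM in HFD-75%. They were 312, 425 and 667 CPM in HFD-U and 360, 665 and 909 CPM in NFD-C. In HFD-50% the mice fell apart: 3 stood above every HFD-C mouse, at 927, 1239 and 1995 CPM, and 3 below every one, at 375, 391 and 412 CPM. In the same order, slow fibre sums were 1176, 585 and 1060 CPM in the high mice. They were 2105, 3018 and 3880 CPM in the low ones. Endothelial sums were 185, 185 and 134 CPM against 297, 315 and 209 CPM, and sums of the other marker lists overlapped. The part of cell composition in this split was not tested.

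The log2 difference of Fbxo32 from HFD-C was 0.89 (0.12 to 1.67, adjusted p = 0.398) in HFD-50% and 0.70 (0.16 to 1.24, adjusted p = 0.743) in HFD-75%. Against HFD-U it was 0.93 (0.07 to 1.79, adjusted p = 0.376) in HFD-50% and 0.73 (0.08 to 1.38, adjusted p = 0.817) in HFD-75%. HFD-50% replicate 4 carried much of the values of its group, which without that mouse were 0.47 against HFD-C and 0.503 against HFD-U and missed the threshold before adjustment. Its library stood apart in markers of other cell types. Of all 36 libraries it had the highest sum of 6 adipocyte markers (3096 CPM, where the other HFD-50% libraries had 1101 to 1466 CPM) and of 4 markers of other immune cells (6.89 CPM against 1.29 to 3.64 CPM), and the lowest sum of 5 fibroblast markers (193 CPM against 288 to 477 CPM). No marker of these lists was at 0 in the group as a whole. The part of these markers in the result was not tested. Without HFD-75% replicate 5 the difference of HFD-75% from HFD-C was 0.37.

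Trim63 (gene 433766, chromosome 4, 134042431 to 134056940, plus strand) encodes the RING finger ligase that targets myosin heavy chain and other thick filament proteins. Its promoter is shown because FOXO and the glucocorticoid receptor are both known to act on it. The 250 bases before the transcription start are from RefSeq, chr4:134314870-134315119 on the plus strand of GRCm38.p6, a build other than that of the gene positions above. Capitals mark a FOXO core (TGTTTAC) and, 1 base before it, a glucocorticoid receptor palindrome (GAACANNNTGTTC), both searched on both strands.
Trim63: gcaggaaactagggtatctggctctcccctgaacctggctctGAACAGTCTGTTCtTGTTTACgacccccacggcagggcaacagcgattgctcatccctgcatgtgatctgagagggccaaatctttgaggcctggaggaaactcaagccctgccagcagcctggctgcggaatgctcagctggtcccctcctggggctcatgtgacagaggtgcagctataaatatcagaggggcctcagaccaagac
The FOXO core starts 194 bases and the palindrome 208 bases before the start of transcription. Of 32851 promoters of this length, 3.17% held the FOXO core and 0.0396%, or 13 promoters, held the palindrome. The table held 6 promoters of 5 of the 7 genes, and neither string was found in those of Foxo1, Foxo3, Fbxo30 and Fbxo40. A match is a string of letters and was not tested as a binding site.

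The values of Trim63 resembled those of Fbxo32. The lowest, median and highest were 290, 409 and 475 CPM in HFD-C, 193, 408 and 867 CPM in HFD-25%, and 227, 371 and 531 CPM in HFD-U. In HFD-50% they were 311, 659 and 2136 CPM, in HFD-75% 330, 692 and 1804 CPM, and in NFD-C 381, 523 and 698 CPM. In HFD-50% 3 and in HFD-75% 4 of the 6 mice exceeded every HFD-C mouse, and the other mice of both groups overlapped with HFD-C.

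Trim63 was 2.19-fold higher in HFD-50% than in HFD-C (log2 difference 1.13, 0.30 to 1.97, adjusted p = 0.318) and 2.10-fold higher in HFD-75% (log2 difference 1.07, 0.36 to 1.78, adjusted p = 0.577). Against HFD-U the log2 differences were 1.196 (adjusted p = 0.286) and 1.14 (adjusted p = 0.558). Without HFD-50% replicate 4, the mouse at 2136 CPM whose library stood apart in adipocyte, other immune and fibroblast markers, the difference of HFD-50% was 0.61 from HFD-C and 0.67 from HFD-U. Without HFD-75% replicate 5, the mouse at 1804 CPM, that of HFD-75% from HFD-C was 0.68. With the 2 low-share HFD-C replicates as the only controls, the log2 differences were 1.18 for Trim63 and 1.005 for Fbxo32 in HFD-50%, and 1.11 and 0.80 in HFD-75%, and none of the 4 passed before adjustment.

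The mean of Trim63 was higher in NFD-C than in HFD-C mice (529 ± 106 against 394 ± 62.5 CPM, log2 difference 0.43, 0.11 to 0.75, adjusted p = 0.9997) and than in HFD-U mice (log2 difference 0.49, adjusted p = 0.300). For Fbxo32 the difference of NFD-C from HFD-C was 0.37 (-0.04 to 0.78, adjusted p = 0.9997).

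Fbxo40 (gene 207215, chromosome 16, 36783823 to 36811321, minus strand), the muscle F-box protein that targets IRS1, was lowest at the shorter running distances. Its mean was highest in NFD-C (494 ± 104 CPM) and HFD-C (460 ± 123 CPM) and lowest in HFD-25% (353 ± 58.5 CPM) and HFD-50% (335 ± 89.9 CPM), with HFD-75% (428 ± 61.6 CPM) and HFD-U (417 ± 77.7 CPM) between them. In HFD-25% and in HFD-50%, 4 of 6 mice lay below every HFD-C mouse.

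The log2 difference of Fbxo40 from HFD-C was -0.38 (-0.75 to -0.02, adjusted p = 0.698) in HFD-25% and -0.45 (-0.87 to -0.04, adjusted p = 0.424) in HFD-50%. Without HFD-C replicate 1, the mouse at 678 CPM, they were -0.24 and -0.32, and both missed the threshold before adjustment, as each did in 6 of the 12 fits without 1 mouse. Against the 2 HFD-C replicates of low rRNA-linked share these were -0.09 and -0.17. The 4 high-share HFD-C replicates had 678, 525, 440 and 359 CPM of Fbxo40 and the 2 low-share ones 366 and 393 CPM. With library set in the model, chosen after seeing the data, the differences were -0.11 and -0.18. In NFD-C, whose libraries all had a high share, the fitted log2 level of Fbxo40 was higher by 0.49 than in HFD-25% (adjusted p = 0.203) and by 0.56 than in HFD-50% (adjusted p = 0.148).

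Fbxo30 (gene 71865, chromosome 10, 11157009 to 11181494, plus strand), a ligase that BMP signalling through SMAD proteins holds down, had the lowest level of the 7. Group means were between 14.3 ± 3.49 CPM in NFD-C and 18.1 ± 5.77 CPM in HFD-50%. Its log2 differences from HFD-C were 0.13 (-0.34 to 0.60) in HFD-50% and -0.12 (-0.51 to 0.28) in HFD-U. With the 2 low-share HFD-C replicates as the only controls they were 0.53 and 0.28 (adjusted p = 0.607 and 0.634 by edgeR).

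**Figure D2:**
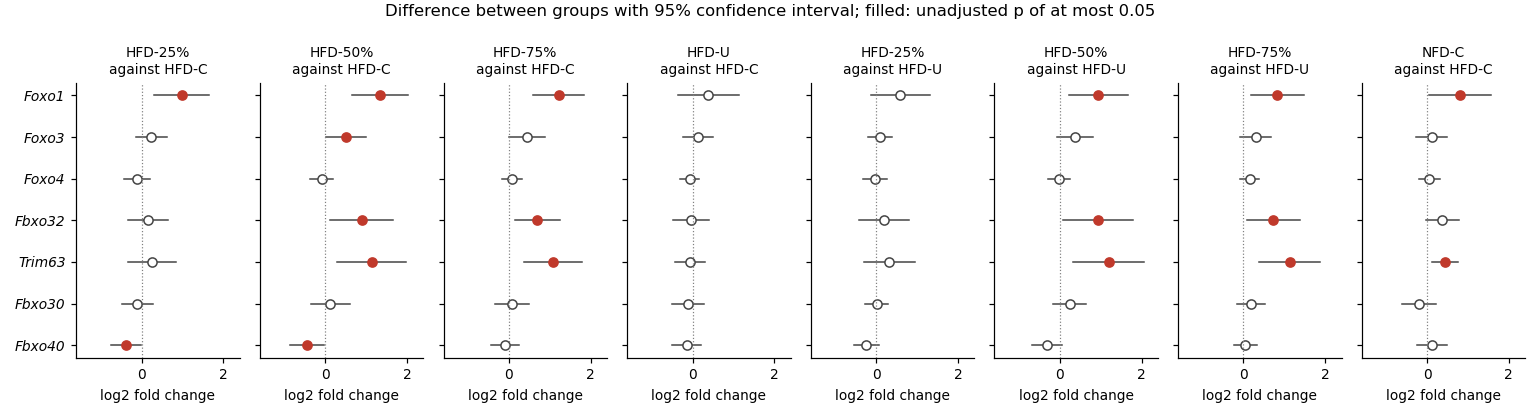
Log2 fold changes of the 7 genes between groups, with 95% intervals, for 8 comparisons, filled where the unadjusted p was 0.05 or lower. The filled points of Foxo1, Fbxo32 and Trim63 lie to the right of 0 in HFD-50% and HFD-75%, against both HFD-C and HFD-U. Those of Fbxo40, in HFD-25% and HFD-50% against HFD-C only, lie to the left of 0.

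Read against the background of all genes, the members were called more often than the average gene at every restricted distance against HFD-C. The same held for NFD-C against HFD-C, and it did not hold for HFD-U against HFD-C. With a call defined as an unadjusted p no higher than 0.05, 5 of 7 members were called in HFD-50% against HFD-C, where 10.7% of genes were. Without 1 mouse this count was 2 to 4, and with low-share libraries only it was 2. The count was 3 of 7 in HFD-75% against HFD-C, with 5.47% of genes, and 2 of 7 in HFD-25% against HFD-C, with 6.98% of genes. In HFD-U against HFD-C no member was called and 5.46% of genes were. As the genes were chosen with earlier results known, these shares describe the list only.

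Against HFD-U, 3 of 7 members were called in HFD-50%, with 12.4% of genes, 3 in HFD-75%, with 5.57% of genes, and none in HFD-25%, with 5.10% of genes. These comparisons share their HFD-U mice. No member was called between the restricted distances, where the background was 2.69% for HFD-50% against HFD-25%, 5.37% for HFD-50% against HFD-75% and 3.12% for HFD-75% against HFD-25%. For NFD-C against HFD-C 2 of 7 members, Foxo1 and Trim63, were called against 4.12% of genes. For NFD-C against the runners the background was 11.7% in HFD-25% and 15.7% in HFD-50%, with 1 member each (Fbxo40), 10.4% in HFD-75% with none, and 10.5% in HFD-U with 1 (Trim63).

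After adjustment few genes of any kind were called. The share of genes that passed the adjusted threshold of 0.05 was 0.00820% in HFD-25% against HFD-C and 0.00844% in HFD-50% against HFD-U, 1 gene each. For NFD-C it was 0.599% against HFD-25%, 0.850% against HFD-50%, 0.753% against HFD-75% and 0.759% against HFD-U. It was 0% in the other 9 comparisons of 2 groups. In HFD-U against HFD-C, mice with the same number deviated together from their group means (correlations of 0.125 to 0.510 over 6 pairs), and with the number as a replicate block 1232 genes were called before adjustment, in place of 657, and 11 after it. No member was among them, and the blocked log2 difference was 0.36 for Foxo1 (adjusted p = 0.653) and -0.10 for Trim63 (adjusted p = 0.851).

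With group means removed, Fbxo32 and Trim63 varied together over the 36 mice, with the highest r in HFD-50% and HFD-75%. Deviations from the group means of log2 CPM correlated with r = 0.848 over the 36 mice (permutation p = 1e-05, the smallest the 100000 resamples can give, adjusted over 21 pairs p = 0.000105; rho = 0.783, permutation p = 5e-05). Without the 2 mice farthest from the median r was 0.777, in the 26 low-share libraries 0.902 and in the 10 high-share libraries 0.209. Within HFD-25%, HFD-50% and HFD-75% r was 0.887, 0.986 and 0.971 (exact permutation p adjusted over 36 relations within groups 0.055, 0.0333 and 0.0333). In NFD-C, HFD-C and HFD-U r was 0.262, 0.215 and 0.522 (adjusted exact permutation p = 0.752, 0.787 and 0.559). Without the 2 mice of each group farthest from its Fbxo32 median, r was 0.507 in HFD-25%, 0.964 in HFD-50% and 0.954 in HFD-75%. On that basis it was 0.514 in NFD-C, 0.683 in HFD-C and 0.368 in HFD-U, so HFD-25% did not stand above the sedentary groups. The difference between groups was not tested. Relations within groups were computed for a chosen part of the 21 pairs only. The ratio of Trim63 to Fbxo32 had a median between 0.772 in HFD-U and 1.02 in HFD-75%, and the HFD-50% mice, which spanned 5.32-fold in Fbxo32, had ratios of 0.795 to 1.08.

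**Figure D3:**
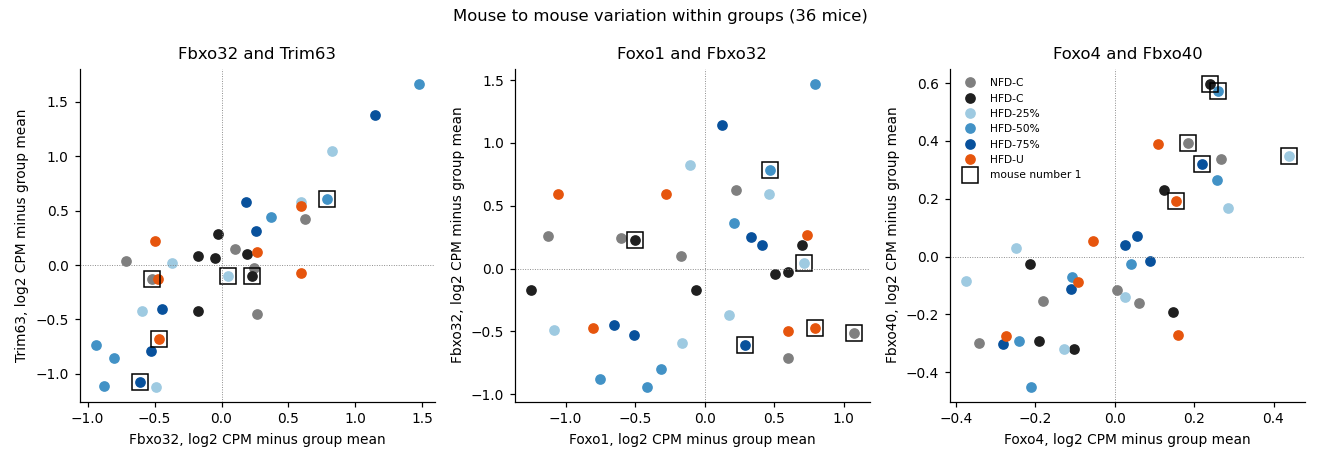
Deviation of log2 CPM from the group mean for 3 pairs of genes in 36 mice, coloured by group, with the mouse numbered 1 of each group in a square. Fbxo32 and Trim63 lie along a line (r = 0.848), Foxo1 and Fbxo32 scatter (r = 0.184), and the squares lie at the upper right for Foxo4 and Fbxo40.

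Between Foxo1 and Fbxo32 no relation over all 36 mice passed the test. Their deviations gave r = 0.184 (permutation p = 0.283, adjusted p = 0.350; rho = 0.140, permutation p = 0.439), with 0.355 in the low-share and -0.550 in the high-share libraries and 0.215 without the 2 farthest mice. The values within single groups had a wide range, and their difference was not tested. In HFD-50%, where 3 mice were high and 3 low in Fbxo32, r was 0.970 (exact permutation p = 0.00417, adjusted over 36 relations within groups p = 0.0333; rho = 0.943, exact permutation p = 0.0167; 0.998 without the 2 farthest mice). In the other groups it lay between -0.636 in NFD-C and 0.444 in HFD-75%, with adjusted exact permutation p-values of 0.372 or more. Without the 2 farthest mice of each of these groups it ran from -0.720 in HFD-U to 0.837 in HFD-C, and was -0.594 in HFD-75%. Foxo1 and Trim63 gave r = 0.444 (permutation p = 0.00284, adjusted p = 0.0144; rho = 0.458, permutation p = 0.00480), with 0.487 and 0.444 in the library sets and 0.420 without the 2 farthest mice. In HFD-50% alone r was 0.977 (exact permutation p = 0.00278, adjusted p = 0.0333; rho = 0.943, exact permutation p = 0.0167; 0.974 without the 2 farthest mice). In the other groups r of Foxo1 and Trim63 lay between -0.169 in HFD-U and 0.921 in HFD-C, where it was 0.367 without the 2 farthest mice. The HFD-50% mice high and low in Fbxo32 also differed in slow fibre and endothelial sums, as given above.

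Foxo3 also varied with other members. Its r was 0.578 with Foxo1 (permutation p = 0.000350, adjusted p = 0.00245; rho = 0.571, permutation p = 0.000570) and 0.547 with Fbxo32 (permutation p = 0.00343, adjusted p = 0.0144; rho = 0.528, permutation p = 0.00462). In the low-share libraries these were 0.673 and 0.630, in the high-share libraries 0.208 and 0.0953, and without the 2 farthest mice 0.562 and 0.561. With the mouse number as a block, r was 0.422 and 0.720 (adjusted p = 0.0432 and 0.000420, permutation). The relations of Foxo3 with Foxo4, Fbxo30 and Fbxo40 (r = 0.454, 0.521 and 0.503) passed without the block and not with it (adjusted permutation p = 0.498, 0.170 and 0.498). Of the 21 pairs 11 passed the adjusted threshold of 0.05, all with r above 0.

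Foxo4 and Fbxo40 gave r = 0.740 (permutation p = 1e-05, adjusted p = 0.000105; rho = 0.724, permutation p = 1e-05), with 0.730 and 0.836 in the library sets and 0.752 without the 2 farthest mice. Both genes, and Foxo3 and Fbxo30 as well, moved with the mouse number in the labels. The mouse numbered 1 had the most Fbxo40 of its group in 5 of 6 groups and the most Foxo4 in 4 of 6, and lay above its group mean in all 6 for both genes. The same mice lay above their group mean in all 6 groups for Foxo3, with the highest value in 5, and for Fbxo30, with the highest in 4. Their mean log2 deviation was 0.40 for Fbxo40, 0.25 for Foxo4, 0.43 for Foxo3 and 0.35 for Fbxo30. For Foxo1 it was 0.47, with values above the group mean in 5 of 6 groups and the highest value in 3. The mice numbered 6 had a mean log2 deviation of -0.60 for Foxo1. With the number as a block, r of Foxo4 and Fbxo40 was 0.355 (permutation p adjusted over 21 pairs 0.157). The labels do not say what a number stands for.

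The genes most like each member over the 36 libraries, by Pearson's r of log2 CPM, were named by rule and are a description only. For Foxo1 they were Fkbp5 (r = 0.850), Slc7a2 (0.806), Plin4 (0.8005), Slc7a8 (0.7999) and Aff1 (0.799). Fkbp5 is a glucocorticoid-induced chaperone partner, Slc7a2 and Slc7a8 are amino acid transporters and Plin4 coats lipid droplets. For Foxo3 they were Filip1 (0.843), Erbin (0.829) and BC005537 (0.811), and for Foxo4 Wdtc1 (0.905), Txlnb (0.868) and Kif1c (0.867).

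Klhl38, a muscle Kelch protein, was among the genes nearest to both Fbxo32 (0.941) and Trim63 (0.850). Arntl (0.825), the clock factor BMAL1, was also near Fbxo32, and Lrrc30 (0.900) was near Trim63. For Fbxo30 they were Myot (0.789), Retreg1 (0.755) and Ppp2ca (0.754). For Fbxo40 they were Tnks2 (0.898), Nfic (0.893) and Scarb2 (0.886), with 105 genes in all at an r of at least 0.8, where Foxo1 and Foxo3 each had 3 such genes. The libraries share depth and rRNA-linked share, and no p is given.

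FOXO target genes outside the members were next counted in hand-written lists. Of 25 targets, 9 were called before adjustment in HFD-50% against HFD-C, 8 of them higher, where 10.7% of all genes were called, with a median log2 difference of 0.31 against 0.01 over all genes. In HFD-75% against HFD-C 5 of 25 were called, all higher, against 5.47% of genes, and in HFD-U against HFD-C 1 of 25, against 5.46%. In HFD-25% against HFD-C 1 of 25 was called, against 6.98% of genes, with a median log2 difference of 0.001. None passed the adjusted p in these comparisons with HFD-C. Against HFD-U, 10 of 25 were called in HFD-50%, 9 of them higher, where 12.4% of genes were, and Angptl4 passed after adjustment.

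Angptl4, a secreted inhibitor of lipoprotein lipase, rose from 5.17 ± 0.755 CPM in HFD-U to 24.2 ± 12.5 CPM in HFD-50% (log2 difference 2.22, adjusted p = 0.0106). Its curve over distance passed in the 30 mice (adjusted p = 0.00334 by edgeR) and in the 24 running mice (adjusted p = 0.0154 by edgeR). Pdk4, which blocks entry of pyruvate into the mitochondrial cycle, had means of 1139 ± 443.9 CPM in HFD-C, 2069 ± 1076 CPM in HFD-50%, 1917 ± 530 CPM in HFD-75% and 1127 ± 174 CPM in HFD-U. For Pdk4 the log2 difference of HFD-50% from HFD-C was 0.86 (adjusted p = 0.392 by edgeR). Gadd45a differed by 0.69 and Txnip by 0.50 in the same comparison (adjusted p = 0.365 and 0.230 by edgeR).

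**Figure D4:**
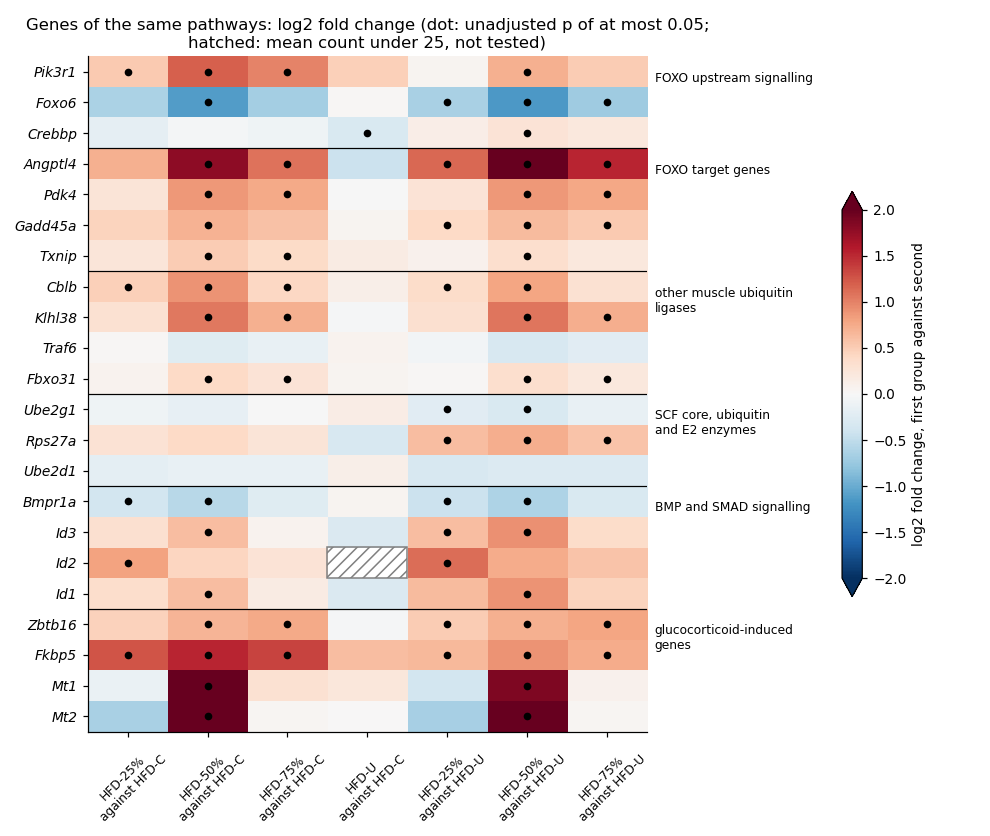
Log2 fold change (colour, with values beyond -2 or 2 drawn at the end of the scale) of genes named by rule from 6 pathway lists, in 7 comparisons, with a dot where the unadjusted p was 0.05 or lower and hatching where Id2 was not tested. Dots gather in the columns of HFD-50%, with 1 in the column of HFD-U against HFD-C (Crebbp, -0.31). The rule took the genes with the smallest p of the distance curve over the running mice. That choice favours genes that differ between running distances, so where the dots gather is no test of the pathways.

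Upstream of FOXO, 24 genes of insulin and IGF-1 signalling, its antagonists and FOXO regulators were tested. In HFD-50% against HFD-C 3 were called before adjustment, 1 higher and 2 lower, which is 12.5% of the list against 10.7% of genes. In the curve over the 30 mice 4 were, 16.7% against 12.2%, so both shares were near that of all genes. Pik3r1, the regulatory subunit of PI3 kinase, passed the curve after adjustment (adjusted p = 0.0386 by edgeR). For Pik3r1 the means were 32.1 ± 9.71 CPM in HFD-C, 46.0 ± 9.26 CPM in HFD-25%, 73.3 ± 28.7 CPM in HFD-50%, 63.4 ± 28.2 CPM in HFD-75% and 44.6 ± 17.0 CPM in HFD-U. Foxo6, the least abundant FOXO gene here by CPM, had 8.58 ± 3.72 CPM in HFD-C and 3.94 ± 2.21 CPM in HFD-50% (log2 difference -1.12, adjusted p = 0.376 by edgeR). Crebbp differed by -0.03 in that comparison.

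Of 23 other muscle ubiquitin ligases, 5 were called before adjustment in HFD-50% against HFD-C, 4 of them higher, and 5 in HFD-75% against HFD-C, all higher. Each is 21.7% of the list, against 10.7% and 5.47% of genes. Cblb, which targets IRS1 in unloaded muscle, passed the curve over the 30 mice (adjusted p = 0.0125 by edgeR), with means of 14.5 ± 3.21 CPM in HFD-C, 27.0 ± 7.70 CPM in HFD-50% and 15.7 ± 1.51 CPM in HFD-U. Klhl38 and Fbxo31 differed from HFD-C by 1.05 and 0.40 in HFD-50% (adjusted p = 0.282 and 0.407 by edgeR), and Traf6 by -0.24.

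Among 16 genes of the SCF core, ubiquitin and E2 enzymes, none was called before adjustment in HFD-25% or in HFD-U against HFD-C. In HFD-50% against HFD-C the median log2 difference was 0.01 over the list and 0.01 over all genes. For Ube2g1, Rps27a and Ube2d1 the differences in HFD-50% were -0.16, 0.41 and -0.15 (adjusted p = 0.658, 0.618 and 0.737 by edgeR).

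Of 17 BMP and SMAD genes, the pathway that restrains Fbxo30, 3 were called in HFD-50% against HFD-C before adjustment, 2 higher and 1 lower, which is 17.6% of the list against 10.7% of genes. The receptor Bmpr1a had 75.6 ± 16.6 CPM in HFD-C and 51.6 ± 13.5 CPM in HFD-50% (log2 difference -0.55, adjusted p = 0.282 by edgeR). The target genes Id3 and Id1 differed by 0.61 and 0.62 (adjusted p = 0.206 and 0.422 by edgeR), and Id2, at 1.27 to 2.72 CPM in the group means, by 0.44.

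Of 9 glucocorticoid-induced genes, 5 were called before adjustment in HFD-50% against HFD-C, 4 of them higher. In HFD-75% against HFD-C 3 were called, 2 higher and 1 lower, and in HFD-U against HFD-C none. Of all genes, 10.7%, 5.47% and 5.46% were called in these comparisons. Fkbp5 passed the curve over the 30 mice (adjusted p = 0.0178 by edgeR). For Fkbp5 the means were 70.9 ± 40.3 CPM in HFD-C, 169 ± 62.5 CPM in HFD-25%, 204 ± 70.0 CPM in HFD-50%, 181 ± 58.3 CPM in HFD-75% and 109 ± 30.4 CPM in HFD-U. Zbtb16 differed by 0.68 in HFD-50% (adjusted p = 0.363 by edgeR). For Mt1 and Mt2, metallothioneins that were both among the genes called higher, the means in HFD-50% were 139 ± 252 and 71.8 ± 137 CPM. Their SDs exceeded the means, with highest values of 652 and 351 CPM and lowest values of 26.6 and 10.4 CPM. In HFD-C the means were 33.3 and 18.0 CPM.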

How the data were processed

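RNA of 36 gastrocnemius muscles was sequenced as poly(A)-selected paired-end libraries. The authors aligned reads with HISAT2 2.0.5 and deposited whole-number counts per gene from featureCounts 1.5.0-p3, not normalized, per the submitters' processing notes and the methods. StringTie 1.3.3b, DESeq2 1.20.0 and edgeR 3.22.5 are also listed there. The labels name mm10, whereas the chromosome accessions in the deposited table are those of GRCm39. Whether strand was used in counting was not given in the sources used here.

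The analysis ran in R 4.3.3, by edgeR 4.0.16 (TMM factors, genes averaging 25 or more counts per library of a fit, quasi-likelihood F-test, two-sided, Benjamini-Hochberg adjustment over all genes). Each comparison used its 2 groups. The dose response was linear plus quadratic in distance. DESeq2 1.42.0 was an alternative. CPM used TMM factors, and FPKM the deposited gene lengths. Correlations were of log2 CPM (prior count 2) with 100000 permutations within groups. The scripts were tested on simulated data.

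Groups came from the labels. Replicates of 1 group differed by 16.2 to 218 times sampling variance (chi-square per degree of freedom), and p-values measure the spread between mice. Libraries at or above an rRNA-linked share of 1.5% formed the high set. Mouse numbers recur in each group. Only for HFD-U against HFD-C did all 6 same-number pairs correlate above 0.1. The main fits had no block there or elsewhere, and for that comparison the fit with the number as a block is given beside the main one. The 7 genes are named throughout, from each list at most 4 genes with the smallest p over the 24 running mice, and 5 (Foxo1) or 3 genes by likeness. Some genes that this rule names are not reported here. The members and lists were chosen with earlier results of these data known.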

Additional observations from a re-analysis of the deposited data

Results flagged for a closer look

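In 1 of 42 groups of 6 values, a mouse stood apart by Dixon's test at the 95% level, which chance does in about 1 in 20 groups. Fbxo32 in HFD-75% replicate 5 was 1555 CPM, where the next highest mouse of the group had 840 CPM and the lowest 462 CPM, so the gap took 0.654 of the range, above the critical value of 0.625. The same mouse had the most Trim63 of its group, at 1804 CPM.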

How the results depend on the processing

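For the 28 results for single members given with an unadjusted p of at most 0.05, 584 values came from other settings or fits without 1 mouse. Of these, 23 crossed the adjusted threshold, and no value with a direction reversed it. For the curves the direction was that of the bend. DESeq2, a linear term alone and the groups as a factor gave no bend, so those values were not checked for it. The adjusted p for the Foxo1 curve over 30 mice was 0.178 with the groups as a factor, 0.9999 with a linear term alone, 0.136 with the mice numbered 2 to 6 (added after seeing the data), 0.187 with low-share libraries only, 0.164 with the library set as a term (also added) and 0.0296 to 0.0956 without 1 mouse. Without HFD-C replicates 1, 3 and 6 it was 0.0956, 0.0917 and 0.0678. Without HFD-50% replicates 1, 2, 4 and 5 it was 0.0610, 0.0674, 0.0646 and 0.0547. Without HFD-75% replicates 1, 2, 5 and 6 it was 0.0511, 0.0532, 0.0515 and 0.0574, and without HFD-U replicates 3 and 6 it was 0.0545 and 0.050005. The cause was not tested.

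Foxo1 in HFD-50% against HFD-C passed in DESeq2, without a minimum count (adjusted p = 0.0290 by edgeR) and with the replicate block (adjusted p = 0.0414 by edgeR), and Fbxo40 in NFD-C against HFD-50% with the replicate block (adjusted p = 0.0245 by edgeR). The count of members at an unadjusted p of at most 0.05 in HFD-50% against HFD-C was 2 in place of 5 with low-share libraries only or the library set as a term. Without 1 mouse it was 2 to 4 there, 1 to 2 in HFD-25% and 3 to 4 in HFD-75% against HFD-C, 0 in HFD-U against HFD-C, 1 to 2 in NFD-C against HFD-C and 2 to 4 in HFD-50% against HFD-U. The curve over 30 mice had 2 to 5 and over 24 mice 2 to 3 without 1 mouse, and with a linear term alone 0 and 1 (Fbxo40). NFD-C against HFD-C had 1 in place of 2 with DESeq2, the replicate block, 1 fit over 6 groups or high-share libraries only.

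Between the restricted distances the count of 0 became 2 with DESeq2 or its size factors, and 4 without a minimum count, with the replicate block or in 1 fit over 6 groups. For NFD-C against the runners it was 6 without a minimum count and 7 with the replicate block, in place of 3. Of the 21 pairs of members, 5 correlated with low-share libraries only, 6 with the mice numbered 2 to 6 and 6 with the replicate block, in place of 11. CPM by DESeq2 size factors moved no highest group mean by more than its SD. Low-share fits of NFD-C were not run, as no NFD-C library was in that set. At 152 counts or more per library for every member, counting error was small beside the spread between mice.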
